A study of Mus musculus with 22 samples.

Results

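The expression density of 10 neuropeptide precursor genes was followed through the fractions of a 7-day mouse brain: Sst, Npy, Vip, Cck, Penk, Pdyn, Tac1, Tac2, Cort and Adcyap1. These 10 genes were taken by name from the 20129 genes that the arrays named through a RefSeq identifier, and each had 1 such probe. A neuropeptide is made as a longer precursor, which is cut by convertases inside secretory granules and released to act on receptors coupled to G proteins. In the forebrain, somatostatin (Sst), neuropeptide Y (Npy), vasoactive intestinal peptide (Vip) and cholecystokinin (Cck) are known as marks of cortical interneurons, while enkephalin (Penk), dynorphin (Pdyn) and substance P (Tac1) are classic products of the projection neurons of the striatum. Cortistatin (Cort) is a close relative of somatostatin, neurokinin B (Tac2) of substance P, and PACAP (Adcyap1) of vasoactive intestinal peptide.

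Total RNA was measured in 22 fractions cut from 3 brains of C57BL/6J males, an inbred mouse strain, and the labels name no treatment. The titles give an age of 7 days and the age field gives 3 days. One brain was cut into 10 coronal fractions, another into 6 horizontal fractions and the last into 6 sagittal fractions, and a fraction is a slab of pooled slices measured on 1 array. No fraction was measured again, so series and mouse cannot be told apart, and the error of a level is the residual SD, which measures how far arrays lay from a smooth curve along the slabs. A level is log2 of the processed signal minus the array's 75th percentile. It is read within a probe across fractions and never between genes.

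The arrays lay on 4 slides, and 7 of them had a spike-in slope outside the range that the scanner software accepts: coronal fractions 1 and 2, horizontal fractions 1 to 3 and sagittal fractions 1 and 3. On these 7 arrays 36119 to 41965 probes stood well above background, against 29605 to 36342 on the other 15. Coronal fraction 2, which was also alone on its slide, was the lowest coronal fraction for 26.4% of the 39621 probes tested and for 4 of the 9 peptide genes tested. Fold spans and the linear terms of the peptide genes that passed are therefore also given over the 15 arrays in range, as are the r values over 22 fractions that differ there by more than 0.2.

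The labels do not say from which end the fractions were counted, and known regional genes, taken as the mean of each list, set the order. In the coronal series hindbrain genes (Hoxa5, Hoxb4, Hoxb5) were highest in fraction 1, cerebellar genes in fraction 3, midbrain and raphe genes in fraction 4, hypothalamic and thalamic genes in fraction 6, striatal genes in fraction 8 and those of the olfactory bulb in fraction 10. Genes of cortical projection neurons were about equally high in fractions 5 and 9, at 1.45 and 1.49 log2 units above their mean, with Emx1 and Fezf2 highest in fraction 5 and Neurod6 in fraction 9. The coronal fractions thus ran from the hindbrain to the olfactory bulb. In the horizontal series cortical genes were highest in fraction 1 and hypothalamic genes in fraction 6. In the sagittal series hypothalamic genes were highest in fraction 3 and midbrain genes in fraction 4, with both lists lowest in fraction 1.

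Of the 10 peptide genes, 9 stood well above background in all 22 fractions, beside 46.4% of all 55600 probes. The exception was Pdyn, which did so in 5 coronal fractions, in 0 horizontal fractions and in 1 sagittal fraction, and it did not enter the tests. Over the 9 genes the median SD across the 22 fractions was 0.89 log2 units, beside 0.52 over all probes tested. Cort had the widest span of the 9, with its highest level 55.4 times its lowest, and Adcyap1 the narrowest at 3.92 times. The order between them was Penk at 29.8 times, Cck at 23.2, Npy at 19.1, Vip at 17.0, Tac2 at 10.5, Sst at 6.73 and Tac1 at 5.93. These spans are taken over all 22 fractions, and for Cort, Penk, Vip, Sst, Tac1 and Adcyap1 the highest and lowest levels came from different mice. Within 1 series the widest spans were 43.8 times for Cort, 14.1 for Vip, 6.19 for Sst, 5.02 for Tac1 and 2.91 for Adcyap1, each in the coronal series, and 19.8 for Penk in the horizontal series. The order over 22 fractions also depends on the arrays out of range, since Sst, Npy, Vip and Cck had their lowest level in coronal fraction 2 and Penk in horizontal fraction 2. Over the 15 arrays in range Cort stayed at 55.4 times, followed by Cck at 11.7, Tac2 at 10.5, Penk at 7.52, Vip at 7.03, Tac1 at 5.93, Npy at 4.28, Sst at 4.26 and Adcyap1 at 3.88.

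**Figure D1:**
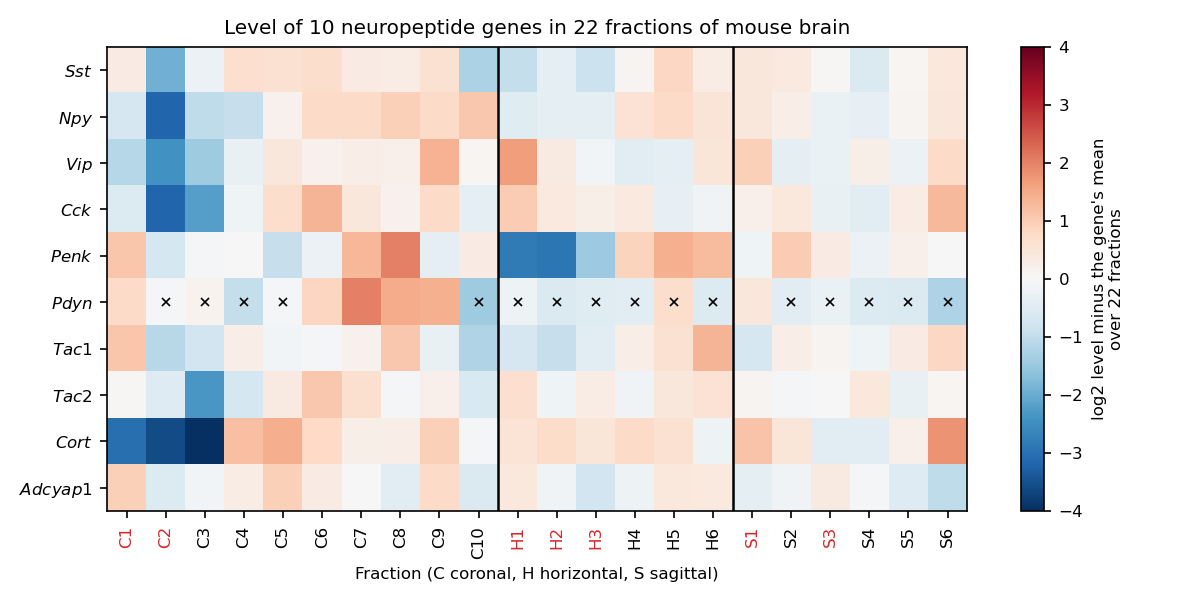
Level of each neuropeptide gene (rows) in each fraction (columns: C coronal, H horizontal, S sagittal) as the log2 difference from the gene's mean over 22 fractions, with red labels for the 7 arrays whose spike-in slope was out of range and a cross where the probe was not well above background. Cort is lowest in coronal fractions 1 to 3, Penk is lowest in horizontal fractions 1 and 2, and Pdyn is highest in coronal fraction 7.

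Along the coronal series, Npy, Vip and Cort rose from the hindbrain end to the forebrain end, and none of the 9 peptide genes tested passed with a falling term. The rise was 3.28 ± 0.65 log2 units (SE of the linear term, end to end) for Npy, 2.58 ± 0.53 for Vip and 4.15 ± 1.01 for Cort. Adjusted p, from limma's F test of the linear and quadratic terms with Benjamini-Hochberg adjustment over 39621 probes, was 0.0100 for Npy, 0.00898 for Vip and 0.00986 for Cort, under the threshold of 0.05. On the arrays in range, which leave out coronal fractions 1 and 2, Npy alone of the 3 passed, with a term of 2.16 log2 units and adjusted p = 0.0206. The term was 1.495 for Vip (adjusted p = 0.0922) and 1.78 for Cort (adjusted p = 0.2002) there, where 10.4% of all probes passed. A term spans the arrays of its own fit, which are 7.5 slabs here against 9.5 with all arrays, and terms of fits that leave out an end fraction are shorter in the same way. Per slab the rise was 0.29 log2 units on the arrays in range against 0.34 on all arrays for Npy, 0.20 against 0.27 for Vip and 0.24 against 0.44 for Cort. These 3 of 9 genes stand beside 19.8% of all probes that passed the same test, and 12.4% that passed it with a rising linear term. In RNA of a whole slab, fewer cells of a type and less RNA per cell cannot be told apart.

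**Figure D2:**
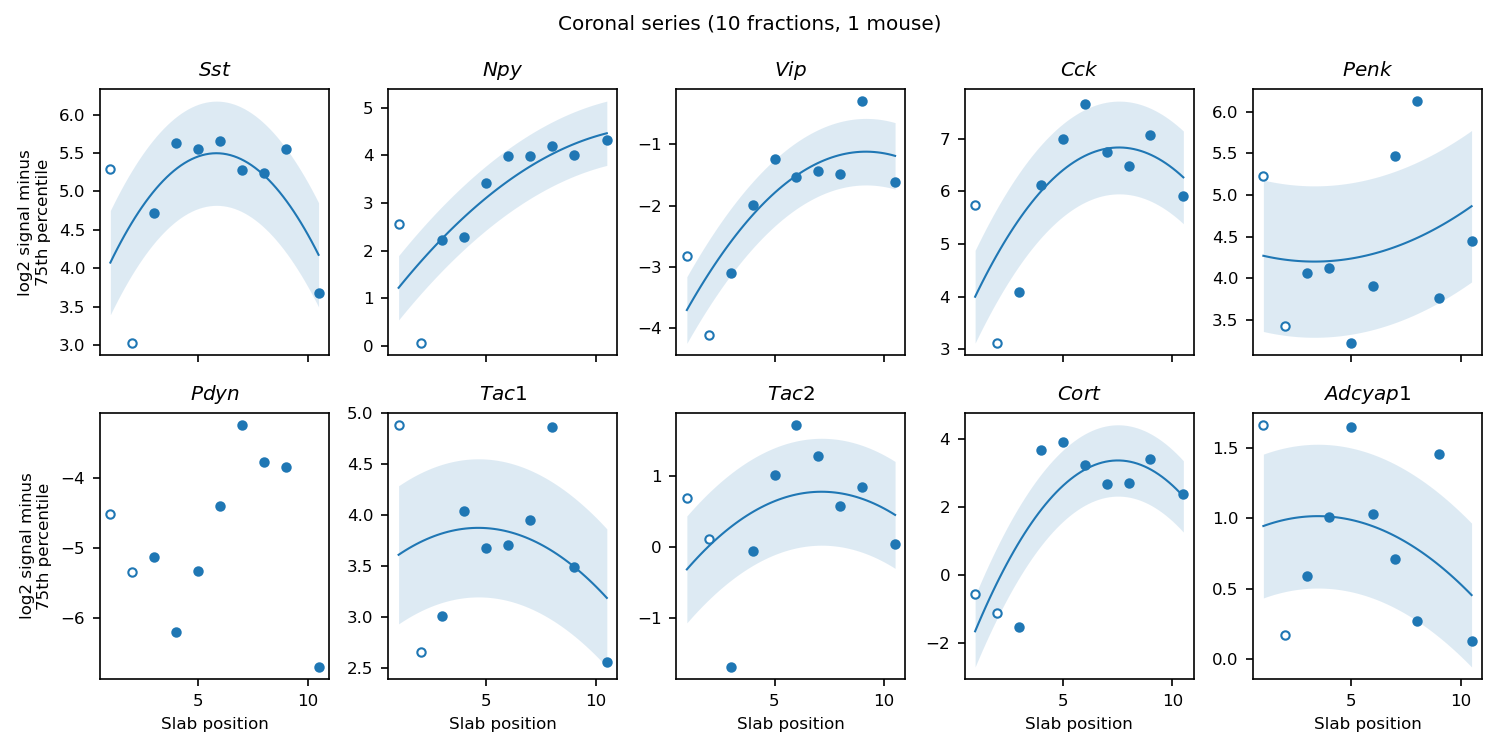
Levels of the 10 genes along the coronal series (x, slab position; y, log2 signal minus the array's 75th percentile), with open points for the 2 arrays out of range and, for the 9 genes tested, the fitted curve and a band of 1 residual SD. Cort steps up between fractions 3 and 4, Npy climbs to fraction 6 and stays near 4, and Vip is highest in fraction 9.

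Cort, cortistatin, had the sharpest step. Its level was -0.57, -1.13 and -1.54 in coronal fractions 1, 2 and 3, then 3.65 in fraction 4 and 3.91 in fraction 5. From fraction 6 to fraction 10 it was 3.24, 2.67, 2.70, 3.39 and 2.37. Every fraction from 4 on stood above every fraction before it, and the step from fraction 3 to fraction 4, 5.20 log2 units, was the largest between neighbouring fractions for any of the 10 genes. Fractions 3 and 4 lay on the same slide and both had a spike-in slope in range. The gap between the 3 low and the 7 high fractions, 2.94 log2 units, was the only one between neighbours in the order of levels that exceeded the residual SD of 1.05. Cortical projection neuron genes as a list were lowest in the same 3 fractions, reaching -3.89 log2 units from their mean in fraction 3, and were at -0.0062 in fraction 4.

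Npy, neuropeptide Y, climbed over more fractions. Its levels in coronal fractions 1 to 5 were 2.56, 0.06, 2.22, 2.29 and 3.41, and in fractions 6 to 10 they were 3.99, 3.99, 4.19, 4.00 and 4.31. The upper 5 fractions spanned less than the residual SD of 0.67 and do not differ beyond it. Fraction 2 was 2.16 log2 units under the next lowest, and without it the rise was 2.35 log2 units with adjusted p = 0.0102.

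Vip, whose peptide marks interneurons that inhibit other interneurons, was dim throughout but well above background in every fraction. It read -2.82, -4.11 and -3.11 in coronal fractions 1 to 3 and -1.99, -1.25, -1.54, -1.44, -1.48, -0.29 and -1.62 in fractions 4 to 10. All 3 fractions of the hindbrain and cerebellar end were below the other 7, and fraction 9 was above every other by more than the residual SD of 0.54. Without fraction 2 the Vip rise was 1.97 log2 units with adjusted p = 0.0294, and without it Cort had adjusted p = 0.0368.

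The Vip and Cort calls were lost when slides were taken into account, and the Npy call was not. Slide 1 held coronal fractions 1 and 3 to 8, slide 2 fraction 2, and slide 3 fractions 9 and 10. With slide as a block in the same limma fit, adjusted p was 0.0326 for Npy, 0.0796 for Vip and 0.0811 for Cort, and the linear term was 3.27, 0.93 and 2.66 log2 units, beside 4.03% of all probes that passed. Within the 7 coronal arrays of slide 1 (a fit chosen after seeing the data) the terms were 2.18, 1.74 and 4.10, with adjusted p of 0.0292, 0.0671 and 0.0774, beside 5.23% of all probes. Per slab they were 0.31, 0.25 and 0.59 log2 units. The coronal arrays fitted alone, with fewer arrays behind the residual SD, gave the same terms as the fit of all arrays with adjusted p of 0.101, 0.0945 and 0.105.

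The promoters of these 3 genes are printed to show what the sequence before their starts holds, beside those of Sst, the relative of Cort, and Adcyap1, the relative of Vip, which did not pass the coronal test. They are the 100 bases before the start of each RefSeq promoter entry, 5′ to 3′ on the gene's strand, with capitals for TGACGTCA, the cyclic AMP response element, or its shorter form TGACGT searched on both strands.
Npy, chr6:49822610-49822709, plus strand: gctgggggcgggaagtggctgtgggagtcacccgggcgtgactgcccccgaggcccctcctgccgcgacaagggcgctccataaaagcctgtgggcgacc
Vip, chr10:5639118-5639217, plus strand: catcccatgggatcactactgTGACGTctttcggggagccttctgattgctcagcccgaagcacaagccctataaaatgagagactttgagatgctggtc
Cort, chr4:149126764-149126863, minus strand: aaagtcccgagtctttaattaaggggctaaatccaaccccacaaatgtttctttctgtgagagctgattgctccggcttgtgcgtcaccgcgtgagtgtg
Sst, chr16:23890845-23890944, minus strand: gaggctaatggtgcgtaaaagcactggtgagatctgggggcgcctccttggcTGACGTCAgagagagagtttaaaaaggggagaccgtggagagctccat
Adcyap1, chr17:93198917-93199016, plus strand: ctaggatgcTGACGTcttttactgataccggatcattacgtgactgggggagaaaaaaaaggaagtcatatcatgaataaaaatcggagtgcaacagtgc

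Coordinates are those of GRCm38.p6, and 9 of the 10 genes had an entry. Adcyap1 had 2 entries with different starts, of which the first listed is printed, and the other held TGACGT from -242. Sst held TGACGTCA from position -48 before its start, Vip held TGACGT from -79 and Adcyap1 from -91, while the printed stretches of Npy and Cort held neither. Over 32851 mouse promoters of 300 bases, 1.79% held TGACGTCA and 7.51% held TGACGT on either strand, the full form counted in both. The match is a description of letters, and it fell in 1 of the 3 genes that rose and in both of the relatives that did not pass.

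Sst, somatostatin itself, was not low where Cort was low, except in fraction 2. It read 5.29, 3.02 and 4.72 in fractions 1 to 3, between 5.24 and 5.65 in fractions 4 to 9, and 3.68 in fraction 10, the fraction of the olfactory bulb. Only fractions 2 and 10 fell clearly below the others, by 1.04 log2 units against a residual SD of 0.68. Its linear term was 0.19 ± 0.66 and adjusted p was 0.176, while on the arrays in range the term was -0.86 with adjusted p = 0.0635. Without coronal fraction 1 it passed, at adjusted p = 0.00262, beside 27.0% of all probes.

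Cck, cholecystokinin, ran close to the threshold at adjusted p = 0.0586, with a rise of 2.37 ± 0.85 log2 units. Its coronal levels were 5.74, 3.11 and 4.10 in fractions 1 to 3, then 6.13, 7.00, 7.65, 6.75, 6.48, 7.07 and 5.90. The lowest 2 fractions were 1.64 log2 units under the rest, and the peak fell in fraction 6. It passed with another background correction, with probes detected in all fractions, with a cubic term and with a robust fit. Adjusted p there was 0.0334 to 0.0482, beside 16.3% to 32.8% of all probes. Without coronal fraction 1 Cck passed at 0.000158, beside 27.0% of all probes. Without coronal fraction 2 its rise was 1.35 log2 units with adjusted p = 0.197, beside 12.8%. With slide as a block adjusted p was 0.301, beside 4.03%. On the arrays in range the term was 1.18 log2 units.

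Among the opioid and tachykinin genes of the coronal series no call was made, although Penk and Tac1 shared a peak at the striatal level. Penk, the enkephalin precursor, ranged from 3.22 in fraction 5 to a median of 4.09 and to 6.13 in fraction 8, where striatal genes were also highest. Fraction 7 read 5.47 and fraction 1 read 5.22, while fraction 9 read 3.76, so the high fractions lay at the striatum and at the hindbrain end. Neighbours in the order of Penk levels never differed by more than the residual SD of 0.91, and adjusted p was 0.796.

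Tac1, which encodes substance P and neurokinin A, had the same 2 ends. It read 4.88 in fraction 1 and 4.86 in fraction 8, against 2.55 to 4.04 in the other 8. Its linear term was -0.39 ± 0.66 with adjusted p = 0.683. Without coronal fraction 1 Tac1 passed at 0.0155 with a rising term of 0.33 log2 units, beside 27.0% of all probes.

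Pdyn, the dynorphin precursor, was highest in coronal fractions 7, 8 and 9, at -3.24, -3.77 and -3.84. It was -4.39 in fraction 6 and -4.51 in fraction 1, which were the other coronal fractions well above background. In the remaining 5 coronal fractions it was not well above background, with values from -6.70 to -5.12 that carry no order. With no filter on detection its adjusted p was 0.572 for coronal position.

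Tac2, the neurokinin B precursor, was lowest in coronal fraction 3 at -1.68, had a median of 0.63 and peaked in fraction 6 at 1.72. Adcyap1, the PACAP precursor, ran from 0.13 in fraction 10 through a median of 0.86 to 1.67 in fraction 1. Adcyap1 was also high in fractions 5 and 9, at 1.65 and 1.46, so its order followed no single gradient. Adjusted p was 0.430 for Tac2 and 0.621 for Adcyap1. On the arrays in range alone Tac2 passed at 0.0351, beside 10.4% of all probes.

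Along the horizontal series, Penk was the 1 of 9 genes that passed, beside 6.57% of all probes, or 3.94% with a rising linear term. Its levels were 1.30, 1.23 and 2.68 in fractions 1 to 3 at the cortical face and 5.02, 5.54 and 5.38 in fractions 4 to 6 toward the hypothalamus. The 2 sets of 3 were separated by 2.34 log2 units, more than the residual SD of 0.91. The rise was 5.09 ± 1.03 log2 units end to end, with adjusted p = 0.0301. Striatal genes as a list lay below their mean in fractions 1 to 3, at -0.98, -0.58 and -0.10, and above it in fractions 4 to 6, at 0.90, 0.66 and 0.30.

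The Penk step fell between the arrays out of range (fractions 1 to 3) and those in range (fractions 4 to 6), so within the horizontal series position and spike-in slope cannot be told apart. Over the 22 arrays Penk had r = -0.65 with the spike-in signal, the furthest from 0 of the 10 genes. In the other series the Penk levels of arrays out of range overlapped those in range. They were 3.42 and 5.22 against 3.22 to 6.13 in the coronal series, and 3.95 and 4.45 against 3.89 to 5.13 in the sagittal series. On the arrays in range, where only fractions 4 to 6 of this series remain, the Penk term was 0.35 log2 units with adjusted p = 0.999999, and 0.0328% of all probes passed. Per slab this is 0.18 log2 units, against 1.02 with all arrays. With the spike-in signal as a covariate the term was 3.35 and the call was lost, at adjusted p = 0.401, where 0.199% of all probes passed. The call was also lost without horizontal fractions 1, 2, 4, 5 or 6, one at a time, at 0.0745, 0.0792, 0.0510, 0.0872 and 0.0525. In those fits the term was 4.46, 4.62, 4.92, 4.79 and 4.90 log2 units. Of all probes 0.0227%, 1.44%, 2.08%, 1.01% and 2.81% passed there, against 6.57% with all arrays.

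**Figure D3:**
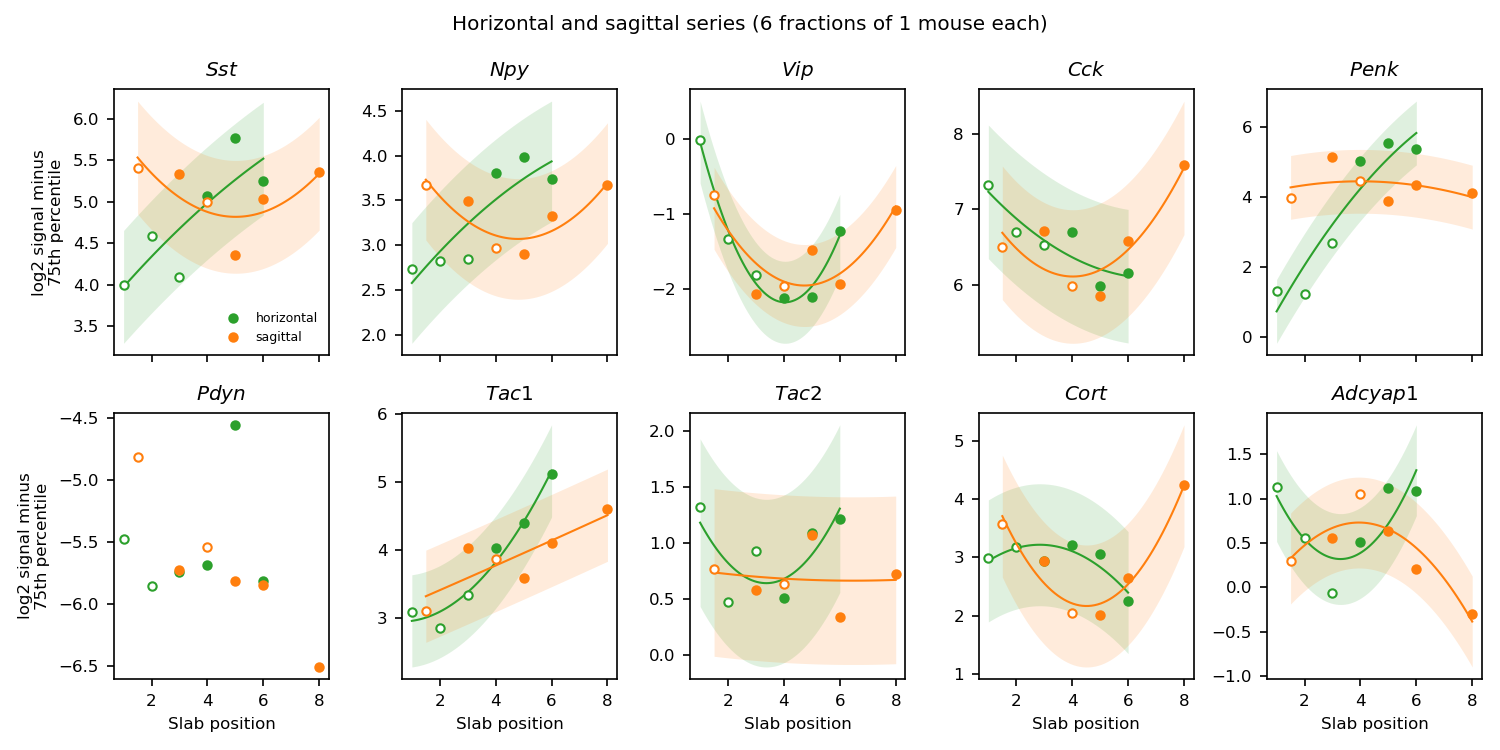
Levels of the 10 genes along the horizontal (green) and sagittal (orange) series, with axes as in the coronal plot, open points for arrays out of range and, for the 9 genes tested, curves with a band of 1 residual SD. Penk in the horizontal series moves from 1.30 to 5.38, while its sagittal levels stay between 3.89 and 5.13.

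Npy and Sst were also lowest in horizontal fractions 1 to 3, without a call. Npy read 2.73, 2.82 and 2.85 there and 3.80, 3.99 and 3.74 in fractions 4 to 6. Sst read 4.00, 4.58 and 4.09 against 5.07, 5.77 and 5.25. For both genes the 2 sets did not overlap, which again followed the spike-in slope, and adjusted p was 0.346 for Npy and 0.275 for Sst.

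Tac1 read 3.09, 2.86, 3.35, 4.03, 4.39 and 5.12 from horizontal fraction 1 to fraction 6, its highest level of all 22 fractions, with adjusted p = 0.110. Per slab its term was 0.44 log2 units, and 0.38 without fraction 6, where pituitary genes were highest too. Vip ran the other way at the cortical face, with -0.02 in fraction 1, its highest level anywhere, then -1.34, -1.81, -2.11, -2.10 and -1.23. The Vip curve was U-shaped, with the 2 outer fractions above the 4 inner ones, and its adjusted p was 0.0865. It was 0.0400 with slide as a block, beside 13.6% of all probes. All horizontal arrays lay on slide 4, so the block acted on coronal arrays alone and the Vip term stayed at -1.24 log2 units. On the arrays in range, which leave out the high fraction 1, adjusted p was 0.999999, beside 0.0328% of all probes.

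Cck was highest in horizontal fraction 1 at 7.32 and lowest in fraction 5 at 5.98, with a median of 6.61. Cort held between 2.95 and 3.21 in fractions 1 to 5 and was 2.25 in fraction 6. Tac2 ranged from 0.48 to 1.33 and Adcyap1 from -0.06 to 1.13 in this series. None of these 4 passed, with adjusted p of 0.627 for Cck, 0.839 for Cort, 0.771 for Tac2 and 0.355 for Adcyap1.

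Along the sagittal series 0 of 9 genes passed limma's test of the linear term (side to side), beside 10.2% of all probes, and 0 of 9 passed that of the quadratic term, middle against sides, beside 0.0303%. At an unadjusted p under 0.05 the count was 0 for both terms, beside 24.0% and 14.8% of all probes. In fraction 4, Sst, Npy, Cck, Penk and Cort had their lowest sagittal level. Midbrain, cerebellar, thalamic, olfactory bulb, choroid plexus and pituitary genes, each as a list, were highest there. Striatal genes as a list were lowest there, at -0.89 log2 units from their mean.

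Cort showed the deepest sagittal curve, with levels of 3.58, 2.94, 2.04, 2.01, 2.64 and 4.25 from fraction 1 to fraction 6. Both outer fractions stood above the 4 inner ones, and the ends exceeded the lowest part of the curve by 1.79 ± 0.95 log2 units with adjusted p = 0.416. Vip had the same shape at 1.03 ± 0.50, with -0.75 and -0.94 in the outer fractions and -2.06 to -1.48 in the inner ones, and adjusted p = 0.360. Its unadjusted p, 0.0585, was the smallest of the 9 genes for this term.

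Cck read 6.50, 6.72, 5.99, 5.86, 6.58 and 7.58, and Npy read 3.67, 3.50, 2.97, 2.90, 3.32 and 3.67. In Sst the sagittal levels lay between 4.36 and 5.40, in Penk between 3.89 and 5.13 and in Tac1 between 3.11 and 4.61. Adcyap1 ran against Cort (r = -0.86 over the 6 sagittal fractions) and was highest in fraction 3 at 1.05 and lowest in fraction 6, at -0.31. Neighbouring levels in the order of any of the 9 genes never differed by more than its residual SD in this series.

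Which regions each gene followed was described by Pearson r over the 22 fractions with the mean of a list of regional genes. The fractions share 3 brains and the array effects above, so these r values have no test. Cort, Cck and Vip followed cortical projection neuron genes most closely, with r of 0.89, 0.80 and 0.78, and Tac2 did so at 0.63. For Tac2 this likeness lay in the coronal series (0.71), with -0.16 in the horizontal and 0.03 in the sagittal one. That list holds Emx1, Neurod6 and Fezf2 and none of the peptide genes.

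Npy had its highest r with the striatal list (Drd1, Drd2, Adora2a, Ppp1r1b, Rgs9, Gpr6), at 0.70, against 0.54 with the cortical list. This order came from the horizontal series (0.91 against -0.84), where fractions 1 to 3 are the arrays out of range, while r was 0.67 against 0.68 in the coronal series and 0.75 against 0.87 in the sagittal one. Penk, Tac1 and Sst had r of 0.59, 0.50 and 0.50 with the striatal list, and Penk and Tac1 had r below 0 with the cortical list, at -0.29 and -0.089. On the arrays in range these last 2 were -0.08 and 0.15. With the list of 9 inhibitory interneuron genes Sst, Npy and Vip had r of -0.01, 0.16 and -0.39 over 22 fractions and -0.34, 0.53 and 0.01 over the arrays in range, so no order is read from them. In that list the Lhx6 probe followed the spike-in signal at r = 0.89, and the Elfn1 probe was well above background in 0 of 22 fractions. Adcyap1 had no r above 0.32 with any list.

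**Figure D4:**
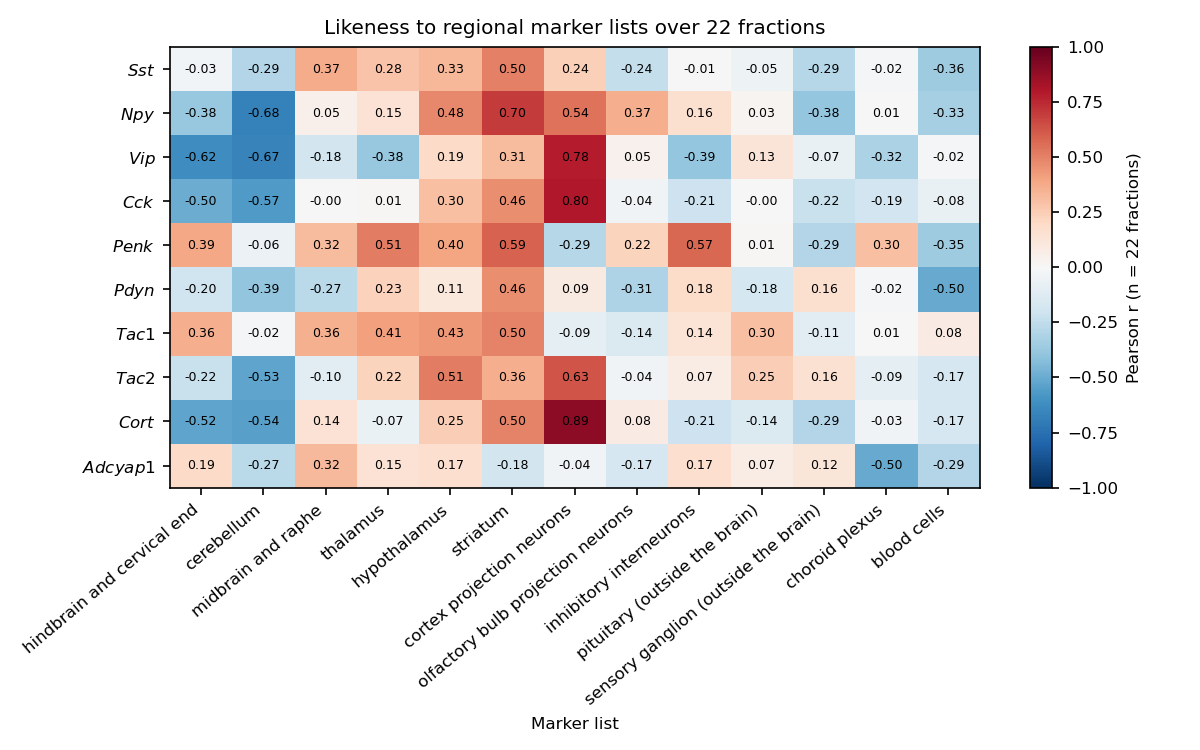
Pearson r between each neuropeptide gene (rows) and the mean of 13 lists of regional or cell type genes (columns) over 22 fractions, where the Pdyn row rests mostly on values not well above background. Cort has its highest r with cortical projection neuron genes (0.89), Npy with striatal genes (0.70), and the r values of Adcyap1 are all at or below 0.32.

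Among the 10 genes themselves, Cck and Cort were the closest pair, at r = 0.86 over 22 fractions, 0.86 over the 10 coronal and 0.90 over the 6 sagittal fractions, but 0.38 over the 6 horizontal ones. Vip and Cck had 0.82, Vip and Cort 0.77, Npy and Cck 0.73 and Penk and Tac1 0.67. Cort and Sst, the relatives, had 0.47, and Adcyap1 and Vip, the other relatives, had 0.14. The lowest r was -0.27, between Vip and Penk. Sst and Npy, which share many cortical interneurons, had 0.58 over all fractions and 0.03 over the 15 arrays in range.

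The genes most like each peptide gene over the 22 fractions were sought among the 16691 genes with a tested probe. For Cort they were Crym (r = 0.97), Kcnh3 (0.94) and Trpc6 (0.94), for Cck Nsmf (0.94), Fam81a (0.94) and Mpv17l (0.94), and for Vip Khdrbs3 (0.93), Nnmt (0.92) and Sybu (0.92). For Npy they were Rab40b (0.95), Actn2 (0.90) and Camk2a (0.90), and for Sst Vstm2l (0.93), Cmpk2 (0.90) and Fxyd7 (0.88). For Penk they were Crabp1 (0.87), Scn4b (0.86), which encodes a sodium channel subunit, and P2ry1 (0.86, and 0.65 on the arrays in range), a purine receptor gene.

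Tac1 was closest to Vsig8 (0.89), Vcam1 (0.84) and Fgfr3 (0.78), and Tac2 to Nr3c2 (0.89), the mineralocorticoid receptor gene, Fezf2 (0.76) and Kcng1 (0.76). Adcyap1 was closest to Tcerg1l (0.84), Stac (0.83) and Fam184b (0.80), and Pdyn, mostly at background, to Rph3a (0.79), Sgsm3 (0.76) and L3mbtl2 (0.75). The likeness of Cort to Crym held in the coronal (0.98) and sagittal (0.98) series and not in the horizontal one (0.16). Fezf2 is a member of the cortical list above.

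The receptors of these peptides were read from a list of 20 genes, of which 19 had a tested probe. In the coronal series 6 of 19 passed, 4 with a rising and 2 with a falling linear term, beside the 19.8% of all probes. The rising ones were the somatostatin receptor genes Sstr1 (1.51 ± 0.52 log2 units end to end, adjusted p = 0.0213), Sstr3 (1.47 ± 0.36, 0.0118) and Sstr4 (0.82 ± 0.17, 0.0053) and the neuropeptide Y receptor gene Npy1r (1.86 ± 0.49, 0.0209). Sstr2 fell by 2.07 log2 units (SE 0.54, adjusted p = 0.0169). In Tacr3, the neurokinin B receptor gene, the linear term was -0.13 ± 0.55 and the curve peaked in the middle (adjusted p = 0.0366). The median linear term of the list was 0.45, beside -0.14 over all probes. With slide as a block, where 4.03% of all probes passed, none of the 6 did, at adjusted p from 0.0747 to 0.344. Sstr2 had a term of -0.65 without coronal fraction 10 (adjusted p = 0.446), and without coronal fraction 2 Sstr1 was at 0.0688 and Npy1r at 0.0785.

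Sstr1 was 1.00, 0.02 and 0.36 in coronal fractions 1 to 3 and between 1.86 and 2.76 in fractions 4 to 9, with 0.90 in fraction 10. Npy1r was between -0.65 and 0.44 in fractions 1 to 3 and between 1.15 and 1.87 in fractions 4 to 10. Npy1r, like Cort and Vip, was thus lower in each of the 3 hindmost fractions than in any other coronal fraction. Sstr2 stayed between -2.30 and -0.67 in fractions 1 to 9 and was -4.61 in fraction 10, where it was not well above background.

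Receptor and peptide genes did not always run together. Over 22 fractions r was 0.81 for Cort and Sstr1, 0.79 for Npy and Npy5r, 0.74 for Npy and Npy1r and 0.68 for Sst and Sstr3, the last at 0.44 on the arrays in range. It was -0.56 for Vip and Vipr1. Cck and its receptor gene Cckbr had 0.91 along the coronal series and -0.76 along the horizontal one.

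In the horizontal series 2 of 19 receptor genes passed, beside 6.57% of all probes. The PACAP receptor gene Adcyap1r1 rose by 1.47 ± 0.34 log2 units (adjusted p = 0.0285) and Sstr4 fell by 0.65 log2 units (SE 0.20, adjusted p = 0.0172). Adcyap1r1 was lowest in fractions 1 to 3, the arrays out of range, at 1.199, 1.53 and 2.12, against 2.26 to 2.95 in fractions 4 to 6. With the spike-in signal as a covariate adjusted p was 0.152 for Adcyap1r1 and 0.0587 for Sstr4. On the arrays in range their terms were -0.53 (0.975) and 0.46 (0.933). Of all probes 0.199% passed with that covariate and 0.0328% on the arrays in range. Without horizontal fraction 1 Sstr4 had a term of 0.02 and adjusted p = 0.120, beside 0.0227% of all probes that passed. The same 2 genes passed the sagittal linear test, beside 10.2% of all probes, with Adcyap1r1 falling by 1.25 log2 units (SE 0.36, adjusted p = 0.0392) and Sstr4 rising by 1.13 ± 0.21 (0.0052). Both sagittal calls rest on fraction 6, where Adcyap1r1 read 0.95 against 2.15 to 2.76 in the other 5 fractions and Sstr4 read -0.31 against -1.74 to -1.27. Without it their terms were 0.07 and 0.22, with adjusted p of 0.945 and 0.707, and 0 of 39621 probes passed (2200 at an unadjusted p under 0.05). With each array centred on its median both were lost too, at 0.225 and 0.0603, beside 4.25% of all probes. Blood cell genes (Hbb-bt, Hba-a1, S100a8, S100a9) as a list were also highest in sagittal fraction 6, at 2.52 log2 units above their mean. A link to these calls was not tested. No receptor gene passed the sagittal quadratic test. The probes for Oprm1 and Tacr2 followed the spike-in signal at r of 0.88 and 0.89. Oprm1 was between 6.69 and 8.36 on the 7 arrays out of range and between 4.41 and 7.04 on the others.

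**Figure D5:**
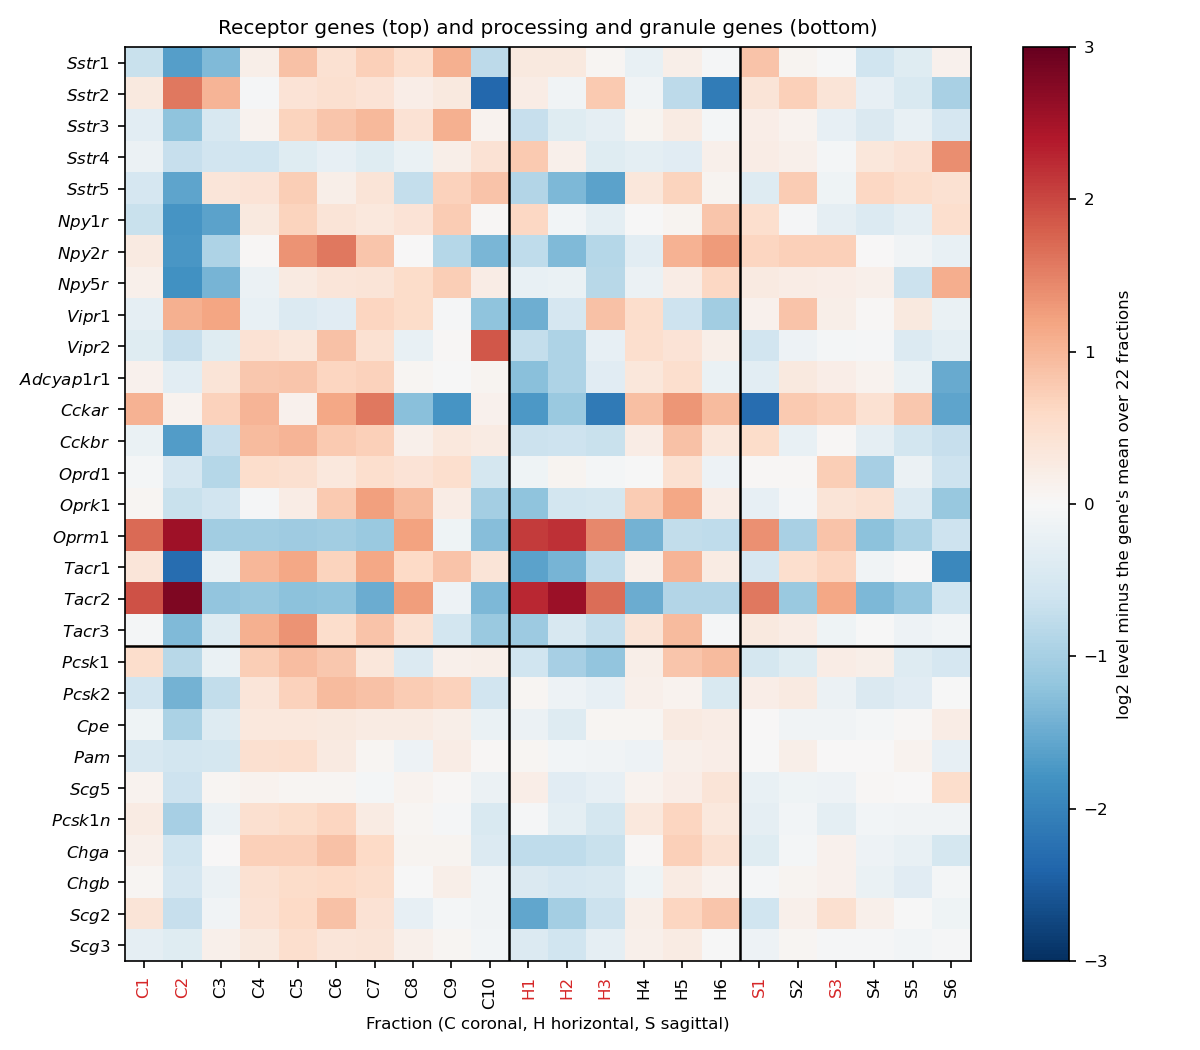
Level of 19 receptor genes (above the line) and 10 processing and granule genes (below it) in each fraction as the log2 difference from the gene's mean over 22 fractions, with red labels for the 7 arrays out of range. Oprm1 and Tacr2 are high on those arrays, and all 10 processing and granule genes have their lowest coronal level in fraction 2.

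The genes that process and store the peptides were read from a list of 10: the convertases Pcsk1 and Pcsk2, the trimming and amidating enzymes Cpe and Pam, the convertase partners Scg5 and Pcsk1n, and the granins Chga, Chgb, Scg2 and Scg3. In the coronal series Pcsk2 and Scg3 passed, 2 of 10 beside 19.8% of all probes, with adjusted p of 0.0081 and 0.0254. Pcsk2 was between 4.08 and 4.67 in fractions 4 to 9 and between 2.29 and 3.15 in fractions 1, 2, 3 and 10, and its linear term was 1.28 ± 0.41 log2 units. Scg3 peaked in fraction 5 at 5.23 and was lowest in fraction 2 at 4.37. With slide as a block Pcsk2 was at 0.0530 and Scg3 at 0.142, beside 4.03% of all probes that passed. All 10 genes had their lowest coronal level in fraction 2, the array that stands apart, beside 26.4% of all probes.

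In the horizontal series the granin genes Chga and Scg2 passed, 2 of 10 beside 6.57%. Scg2 rose by 2.54 ± 0.44 log2 units (adjusted p = 0.0182), from 3.22 in fraction 1 to 5.61 in fraction 6. Pituitary genes were also highest in fraction 6, and whether that tissue added to the level was not tested. Chga rose by 1.62 ± 0.38 (adjusted p = 0.0479), from 4.50 to 5.73. Both were lower in each of fractions 1 to 3, the arrays out of range, than in fractions 4 to 6. Both calls were lost with the spike-in signal as a covariate, at 0.558 for Chga and 0.179 for Scg2, beside 0.199% of all probes. On the arrays in range their terms were 0.43 and 0.67. In the sagittal series 0 of 10 passed, beside 10.2% of all probes for the linear and 0.0303% for the quadratic term.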

How the data were processed

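The authors hybridised total RNA of 22 fractions (3 mice) to 1-colour Agilent arrays designed on mm9. Per the file headers, Feature Extraction 10.10.1.1 subtracted the background and gave a processed intensity for each spot (linear scale). A log2 table of these arrays was deposited too, in which 99.9% of values lay within 0.02 of log2 intensity minus the array's 75th percentile. That scaling was used here on the scanner intensities, after control and outlier spots were left out and the spots of a probe averaged (55600 probes). No value column was left unused. No spot was saturated. Symbols came from RefSeq tables of GRCm38.p6, and 26553 of 28087 RefSeq probes matched. Where a gene has several probes, that with the highest median counts.

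A probe was tested if well above background in at least 1 fraction of each series (39621 probes), in limma 3.58.1 (R 4.3.3, Python 3.11.15) with series intercepts and linear and quadratic slab terms for each series (9 coefficients, 13 residual degrees of freedom), tested on simulated data. Slab positions are midpoints of the pooled slabs: coronal fraction 10 held slabs 10 and 11, sagittal fraction 1 slabs 1 and 2, and sagittal fraction 6 slabs 7 to 9. Spread is the scatter of arrays around these curves, so p-values hold no spread between animals. Array number limits the precision. The text names all members, the listed genes that passed, and the 3 most similar genes of each member. Members and lists were chosen with earlier results of these data known. Alternatives covered scaling, background correction (normexp with an offset of 50, on median in place of mean signals), detection filter, curve, arrays, spike-in probe a107, slide and leaving out each fraction. Npy4r and the hindbrain marker Slc6a5 had no matched probe. Some marker genes of the regional lists are not reported here and were left out of the list means.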

Additional observations from a re-analysis of the deposited data

Results flagged for a closer look

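In 30 groups (10 genes in 3 series), 4 had a fraction whose gap to the nearest other was large for the group's span. Chance alone gives about 1 in 20 where the levels of a group are interchangeable, while these follow position and array. The share over all probes was not computed, so the 4 are not read as a trait of the peptide genes. Npy read 0.058 in coronal fraction 2, against 2.22 for the next lowest, on the array that is alone on its slide. Tac2 read -1.68 in coronal fraction 3, against -0.06 in the next lowest. Cort read 2.25 in horizontal fraction 6, against 2.95 in the next lowest. Pdyn read -4.56 in horizontal fraction 5, against -5.48 in the next highest, and was not well above background in either.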

How the results depend on the processing

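No paired analysis was possible because a fraction number marks a place on a different axis in a different mouse. The alternative of another probe of a gene was not run, since each peptide gene has 1 RefSeq probe. Some receptor, processing and marker genes had 2 or 3, among them Sstr1, Pcsk2, Vipr1, Oprm1, Tacr2 and Lhx6. Their other probes were not examined. No call reversed. For coronal position the count of peptide genes (3) was 0 with the arrays of the series alone (1.60% of all probes), and 1 (Npy) both with slide as a block (4.03%) and with the coronal arrays of slide 1 only (5.23%), against 19.8% with all arrays. It lay between 3 and 6 when 1 fraction was left out. The 6 came without coronal fraction 1, when Sst, Cck and Tac1 passed too, beside 27.0% of all probes. For horizontal position the count (1, Penk, beside 6.57% of all probes) was 2 with normexp (Vip added, 5.16%). It was 2 with a cubic coronal term (Tac1 added, 9.35%) and 2 with slide as a block (Vip added, 13.6%). With the coronal arrays of slide 1 only it was 3 (Vip and Tac1 added, 29.7%). These slide fits changed no horizontal array, and the horizontal terms of the peptide genes stayed the same. The count was 0 with the series alone (0 of all probes), with the arrays in range (0.0328%) and with a107 as a covariate (0.199%). With 1 fraction left out it lay between 0 and 3, where 0.0227% to 16.5% of all probes passed. The sagittal counts stayed at 0 under every alternative run. Horizontal receptor genes (2) were 1 with median centring, 0 with a107 and 0 on the arrays in range, and sagittal linear receptor genes (2) were 0 with median centring. Processing genes for coronal position (2) were 1 with median centring and 1 with a107. For horizontal position they (2) were 1 with median centring, 0 with a107 and 0 on the arrays in range. With median centring 14.3% of all probes passed for coronal position, 3.09% for horizontal position and 4.25% for the sagittal linear term. With a107 as a covariate, 13.0% passed for coronal position. Over all probes the coronal count (7850) lay between 634 with the series alone and 9211 with normexp, the horizontal count (2604) between 0 with the series alone (10614 at an unadjusted p under 0.05) and 11780 with the coronal arrays of slide 1 only, the sagittal linear count (4045) between 0 and 6264, and the quadratic count (12) between 0 and 909. With 1 fraction left out they were 4869 to 10710, 9 to 6529, 0 to 4966 and 0 to 394. Vip was also lost for coronal position on the arrays in range (adjusted p = 0.0922), and Cort there (0.2002) and with the linear term alone (0.0538). These causes were not tested, except that the series alone and the arrays in range leave fewer arrays. Npy lost its coronal call in 1 of 15 alternatives, Vip in 4, Cort in 5, and Penk its horizontal call in 3.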
